A study of Mus musculus with 8 samples.

Results

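The genes described here encode the nuclear part of the mitochondrial respiratory chain and of the ATP synthase. They were taken by symbol: every row whose name began with Nduf, Uqcr, Atp5 or Cox followed by a digit from 4 to 8, together with Sdha, Sdhb, Sdhc, Sdhd, Cyc1 and Cycs. The rule found 93 genes among the 19703 rows of the table and used no measured value. Of these, 87 had a mean of at least 10 normalized counts over the 7 libraries and were tested: 37 of 38 genes of complex I, 7 of 7 assembly factors of complex I (Ndufaf), 4 of 4 of complex II, 9 of 9 of complex III, 12 of 17 of complex IV, 17 of 17 named for the ATP synthase (complex V), and Cycs, cytochrome c.

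Regulatory T cells (Tregs) are the FOXP3-positive CD4 T cells that hold immune responses in check. The cells came from mice whose Foxp3 gene reports with GFP, were purified by sorting, and grew on beads coated with antibodies to CD3 and CD28 with IL6, IL23 and IL1B added, which push T cells toward the Th17 fate. One group was untreated otherwise; the other received FcCD70, a soluble form of the ligand of the costimulatory receptor CD27, and polyadenylated RNA was sequenced on day 6 to learn what CD27 signalling does to the transcriptome. All samples of both groups are titled WT, for wild type, besides the Foxp3 reporter. The labels name 4 samples in each group, of which 4 titled untreated and 3 titled FcCD70 have a column. In all 8 samples the label for treatment goes against the title. The title was taken for the group, as in the column names, and each direction depends on it. Nothing in the labels ties samples to single animals or cultures, gives an age, or says how many mice were pooled, so p-values speak only of the spread among these libraries, which may be technical.

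The respiratory chain hands electrons from NADH (complex I) and succinate (complex II) through coenzyme Q to complex III, then through cytochrome c to complex IV, which reduces oxygen. Complexes I, III and IV pump protons across the inner mitochondrial membrane, and the ATP synthase uses their return to make ATP. Tregs are known for their reliance on this pathway, whereas Th17 cells lean more on glycolysis. The mitochondrial genome encodes further subunits, but poly(A) gene tables cover them unevenly; here mt-Nd6 was the 1 mitochondrially encoded gene with a row.

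The 7 libraries held 18159685 to 23527899 assigned reads, and 0.750% to 1.08% of the reads of a library fell on the 93 genes. The markers of the labelled cell type were abundant in all 7: 8 of 8 Treg and T cell markers were detected, with a summed level of 87853 to 93846 normalized counts in untreated and 85331 to 89739 in FcCD70 libraries. Foxp3 stood at 2788 normalized counts in the FcCD70 library numbered 2 and at 4811 to 6585 in the other 6. B cell markers summed to 33328 to 36481 in untreated and 33343 to 37428 in FcCD70 libraries, nearly all of it Ighm (32628 to 36720), while Cd79a lay between 3.88 and 18.2. Myeloid markers summed to 63.5 to 121, NK cell markers to 220 to 654 (mostly Klrd1, with Ncr1 at 0), and Elane, S100a8 and S100a9 were at 0 in all 7. The FcCD70 library numbered 2 stood apart: across 11076 genes its difference from the untreated mean had a rank correlation of -0.49 with transcript length, against -0.21 to 0.25 in the other libraries, so that its short transcripts read high. Median differences by complex and gene list are therefore given with and without this library.

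The comparison asked whether FcCD70 altered the expression of respiratory genes. In bulk RNA, fewer cells of a type and less RNA per cell cannot be told apart. No gene of the 87 passed the test (limma, Benjamini-Hochberg adjusted p of 0.9998 or more for each), as was so for all 11083 genes tested (0.0% called). At an unadjusted p under 0.05 the fit held 1 of the 87, Atp5s, against 188 of all genes (1.7%). On the reads recovered from the values, edgeR called 0 genes and DESeq2 1, which was not among the 87. The median log2 difference, FcCD70 minus untreated, was 0.09 over the 87 genes and 0.00 over all genes; 73 of the 87 lay above 0, against 49.1% of all genes. The 95% interval lay within 1.5-fold in either direction for 63 of the 87 genes, with a median distance of 0.39 from the estimate to either end on the log2 scale. For a typical gene, differences smaller than that could not be told from 0 even before adjustment. A call after adjustment over all genes needed a larger difference. In the authors' deposited table, 90 of the 93 genes had an adjusted p, and all stood at 0.99999.

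The small positive median rested on 1 library. Within the pair numbered 2 the median log2 difference of the 87 genes was 0.57, or 1.49-fold, with 84 genes higher in FcCD70 and 3 lower. In the pair numbered 1 it was -0.18, with 21 higher and 66 lower, and in the pair numbered 3 it was -0.09, with 16 higher and 71 lower. The medians over all genes in these pairs were 0.00, 0.00 and 0.00. As many as 49 of the 87 genes were lower in pairs 1 and 3 and higher in pair 2. This pattern was seen in 15.9% of all genes. Of the 87, 0 were higher in all 3 pairs and 1 was lower in all 3. The pair numbered 4 stood outside these counts, as its FcCD70 library was rebuilt from the authors' mean over 8 libraries. Its median over the 87 genes was 0.02, with 50 higher and 37 lower.

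**Figure D1:**
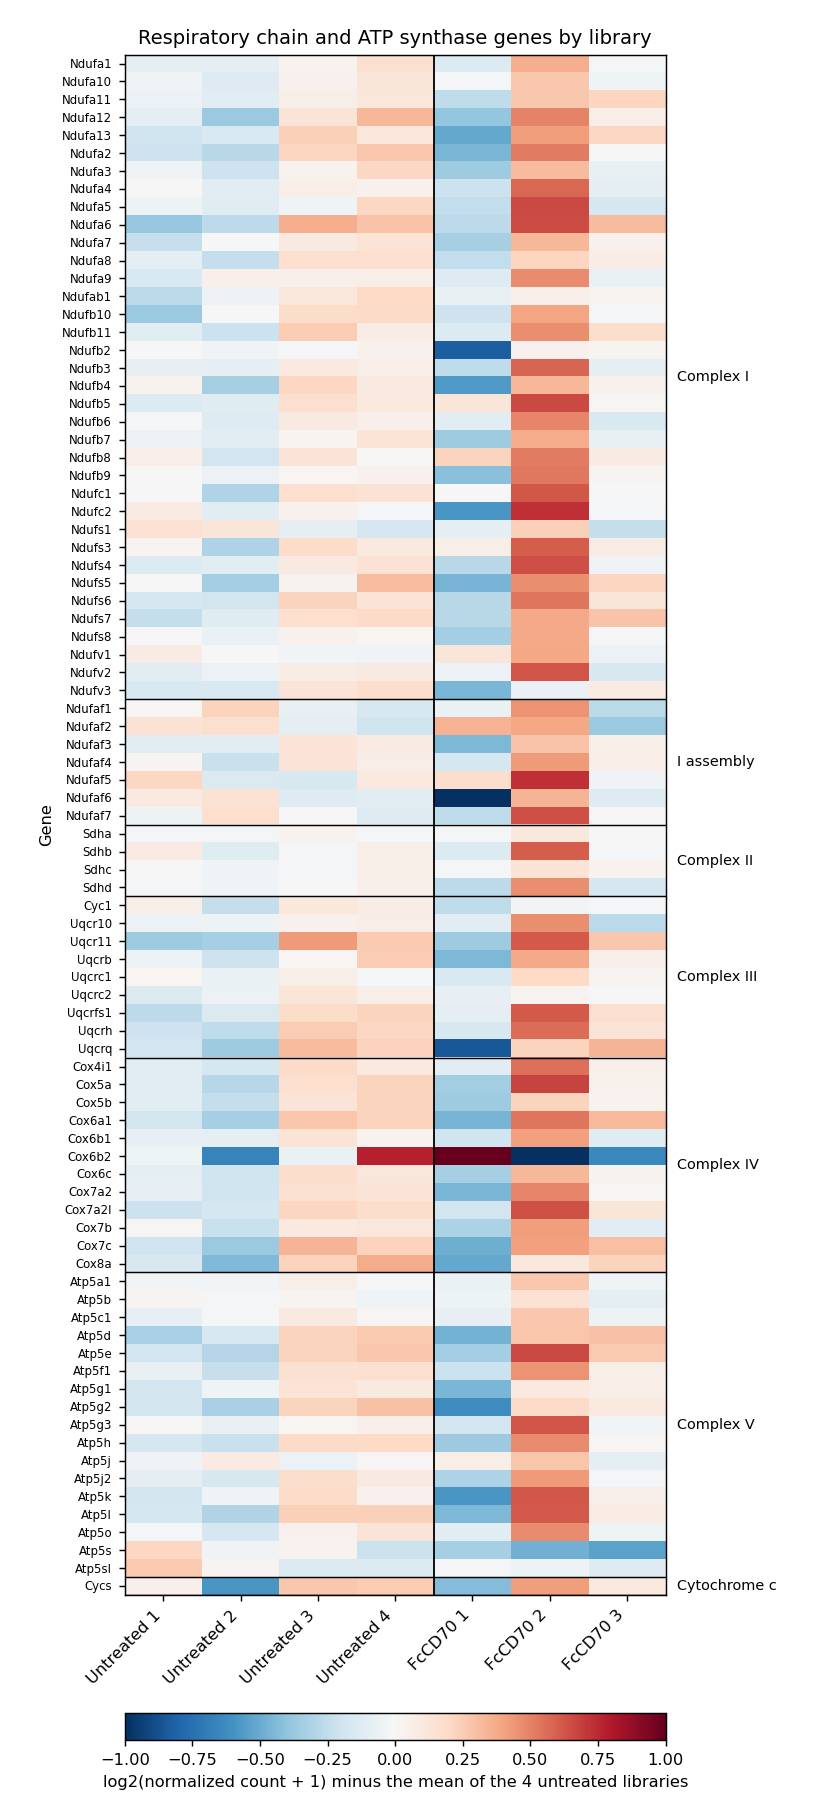
Each row is 1 of 86 of the 87 tested genes, ordered by complex, and each column is 1 library; colour gives log2(normalized count + 1) minus the mean of the 4 untreated libraries, with colours saturated beyond 1 in either direction. The column of the FcCD70 library numbered 2 is red in nearly every complex, whereas that of the FcCD70 library numbered 1 is mostly blue and that of number 3 pale; their medians over the 87 genes were 0.42, -0.26 and 0.01.

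Without the FcCD70 library numbered 2 the median of the 87 genes turned to -0.13, and 76 of them lay below 0, against 49.7% of all genes. Under the replicate block untreated 2 and 4 then had no partner, so this difference came from pairs 1 and 3 alone. Again 0 of the 87 passed the test, while 20 of 11103 genes did (0.18%). At an unadjusted p under 0.05, 13 of the 87 were lower and 0 higher, against 3.53% of all genes lower. Those with the smallest p were Cox7b (log2 difference -0.27), Atp5g2 (-0.28), Ndufc2 (-0.36) and Cycs (-0.33). The smallest adjusted p among the 87 was 0.393 (limma, Benjamini-Hochberg), for Cox7b. Without the FcCD70 library numbered 2 and without the replicate block, the median was -0.11, with 76 below 0. That fit had 1 of the 87 at an unadjusted p under 0.05 (limma) and 0 genes called. With a covariate for numbers 1 and 2 against 3 and 4 in place of the block, the median was again -0.11. It had 19 of the 87 at an unadjusted p under 0.05 (limma) and 6 genes called in all. These counts depended on how the library numbers entered the fit. The direction of the respiratory genes as a whole thus depended on whether this 1 library was kept. The untreated libraries had a spread of their own: in 68 of the 87 genes both libraries numbered 3 and 4 exceeded both numbered 1 and 2, against 30.5% of all genes, with a median log2 gap of 0.22.

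The FcCD70 library numbered 2 was the highest of the 7 in 75 of the 87 genes, against 27.3% of all genes. By complex these were 35 of 37 genes of complex I, 7 of 7 assembly factors, 4 of 4 of complex II, 6 of 9 of complex III, 10 of 12 of complex IV, 12 of 17 of complex V, and Cycs. In 0 of the 87 genes did all FcCD70 libraries lie above all untreated ones (1.34% of all genes), and in 1 did all lie below (1.18% of all genes). Summed over all members, the normalized counts were 160012, 155671, 183289 and 180878 in untreated libraries 1 to 4, and 149415, 221567 and 171806 in FcCD70 libraries 1 to 3. The untreated and FcCD70 sums overlapped, with FcCD70 number 1 the lowest and number 2 the highest of all.

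**Figure D2:**
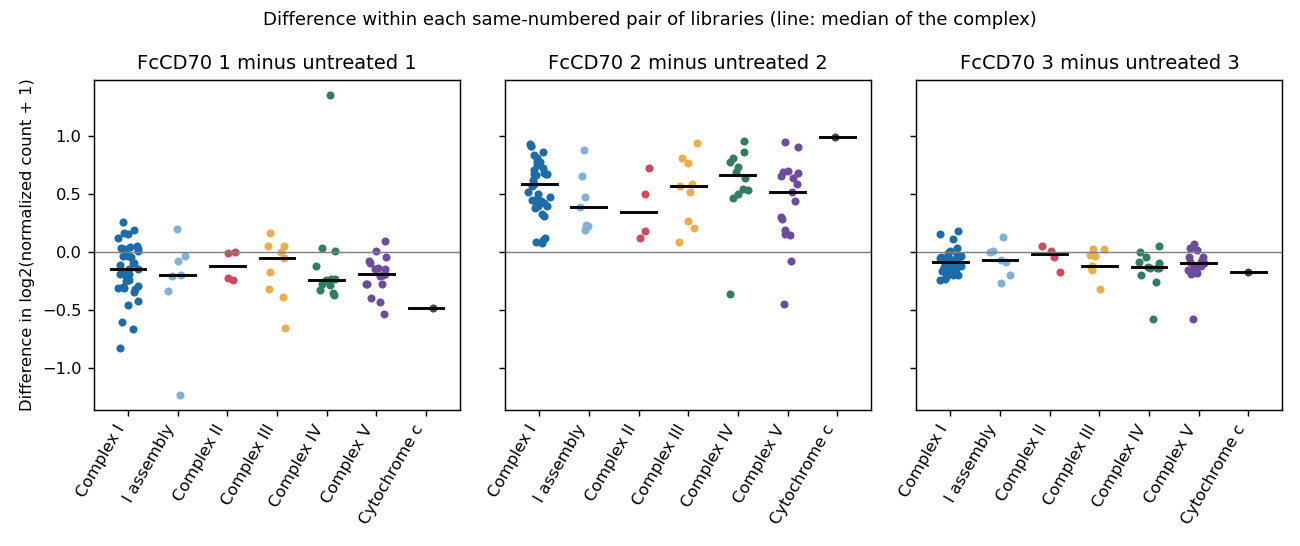
Points are single genes, coloured by complex, and show the difference in log2(normalized count + 1) between the FcCD70 and the untreated library of the same number; black lines are the medians of each complex. Every median is below 0 in pairs 1 and 3 and above 0 in pair 2, where it runs from 0.34 in complex II to 0.66 in complex IV and 0.99 for Cycs.

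Among the 37 tested genes of complex I, which takes electrons from NADH, 0 passed the test; 33 lay above 0 and the median log2 difference was 0.11. Without the FcCD70 library numbered 2 the median was -0.12, with 6 above 0 and 31 below. Ndufa6, an accessory subunit, had the smallest p of this complex and the highest level per transcript length. It had 1564, 1692, 2613 and 2477 normalized counts in untreated and 1695, 3195 and 2536 in FcCD70 libraries. Its values fell into a low set (untreated 1 and 2, FcCD70 1) and a high set (untreated 3 and 4, FcCD70 2 and 3) that cut across the groups, and its log2 difference was 0.33 (95% interval -0.08 to 0.74; limma, adjusted p = 0.9998), or 0.04 without the FcCD70 library numbered 2.

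Ndufs1, a core subunit that carries iron-sulfur clusters (chr1:63143596-63176833, GRCm38), had 2526, 2481, 2141 and 2038 normalized counts in untreated libraries 1 to 4 and 2141, 2695 and 1938 in FcCD70 libraries 1 to 3. It was 1 of 3 complex I genes with higher levels in untreated 1 and 2 than in 3 and 4, and the groups overlapped. Its log2 difference was -0.09 (95% interval -0.37 to 0.20), and -0.19 without FcCD70 number 2. Ndufv1, the subunit that binds NADH and FMN, had log2 differences of 0.04, 0.39 and -0.03 in pairs 1 to 3. Ndufs3 had 0.03, 0.91 and -0.10, Ndufs7 had -0.04, 0.50 and 0.11, Ndufs8 had -0.34, 0.44 and -0.06, and Ndufv2 had 0.05, 0.68 and -0.23. In all of them pair 2 held the highest value. The accessory subunit Ndufc2 had the widest gap between pairs 1 and 2 in this complex (-0.67 and 0.84). It had 885, 776, 860 and 830 normalized counts in untreated and 557, 1386 and 825 in FcCD70 libraries, so that its lowest and its highest value were both from FcCD70.

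The 7 complex I assembly factors, which help build the complex and are not part of it, were expressed at lower levels than most subunits. Their median log2 difference was 0.05, with 4 above 0 and 3 below, and 0 passed the test. Without FcCD70 number 2 it was -0.13, with 1 above 0 and 6 below. Ndufaf5, a hydroxylase acting on a core subunit, had 280, 218, 217 and 259 normalized counts in untreated and 272, 402 and 236 in FcCD70 libraries; only FcCD70 number 2 lay outside the untreated range. Ndufaf6 had 103, 107, 88.4 and 89.6 in untreated and 43.5, 122 and 88.2 in FcCD70 libraries, and its difference of -1.23 in pair 1 was the lowest of all members in any pair. Ndufaf4, the most abundant of the 7 by count, had a log2 difference of 0.13 (95% interval -0.29 to 0.54), which turned to -0.13 without FcCD70 number 2. The assembly factors did not share the step among untreated libraries seen in the subunits: untreated 3 and 4 both exceeded 1 and 2 in 2 of the 7 and lay below them in 3, whereas among the 80 other tested genes they exceeded them in 66 and lay below in 4. The difference between these shares was not tested.

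Complex II, succinate dehydrogenase, is the 1 complex shared with the citric acid cycle, and all its subunits are nuclear. It was the steadiest of the complexes, with a coefficient of variation among untreated libraries of 1.66% to 6.21% over its 4 genes, against medians of 10.6% for complex I, 13.6% for complex III, 15.1% for complex IV and 10.9% for complex V. Sdha, the flavoprotein that oxidizes succinate (chr13:74322254-74350280), had 7023, 7047, 7278 and 7063 normalized counts in untreated and 7029, 7652 and 7080 in FcCD70 libraries. Its FcCD70 values other than number 2 lay inside the untreated range, and the log2 difference was 0.03 (95% interval -0.25 to 0.30), or -0.02 without number 2. Sdhb, the iron-sulfur subunit, had 1907, 1656, 1780 and 1871 in untreated and 1634, 2736 and 1789 in FcCD70 libraries, with a log2 difference of 0.17 (95% interval -0.23 to 0.57), or -0.11 without number 2. The membrane anchors differed from each other in pair 2, where Sdhc had a log2 difference of 0.18 and Sdhd of 0.50. The median over the 4 genes was 0.05, and 0 of them passed the test; without FcCD70 number 2 the median was -0.06, with 1 gene above 0 and 3 below.

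Among the 9 genes of complex III, which passes electrons from coenzyme Q to cytochrome c, 7 lay above 0 and 2 below, with a median of 0.05 and 0 called. Without FcCD70 number 2 the median was -0.10, with 1 above 0 and 8 below. Uqcrfs1, the Rieske iron-sulfur protein (chr13:30540308-30545362), had the smallest p, with 1879, 2031, 2554 and 2629 normalized counts in untreated and 2100, 3451 and 2514 in FcCD70 libraries. FcCD70 number 2 was the highest and the other FcCD70 values lay inside the untreated range. Its log2 difference was 0.30 (95% interval -0.06 to 0.66; limma, adjusted p = 0.9998) and 0.07 without that library. Uqcrh, the hinge protein, had 5175, 5034, 7130 and 6929 in untreated and 5360, 8843 and 6554 in FcCD70 libraries. The structural core proteins were less spread in pair 2, with log2 differences of 0.27 for Uqcrc1 and 0.09 for Uqcrc2. Cyc1, the cytochrome c1 subunit, had log2 differences of -0.32, 0.21 and -0.12 in pairs 1 to 3, and FcCD70 number 2 was not its highest library.

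Cycs, the soluble cytochrome c that carries electrons to complex IV and can trigger apoptosis once released (chr6:50562563-50566538), had 972, 627, 1129 and 1120 normalized counts in untreated and 695, 1249 and 1003 in FcCD70 libraries. The 2 lowest values came from untreated 2 and FcCD70 1, so the groups overlapped throughout. Its pair 2 difference of 0.99 was the highest of all members, while pairs 1 and 3 gave -0.48 and -0.17. The log2 difference over the 3 pairs was 0.11, and -0.33 without the FcCD70 library numbered 2.

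All 12 tested genes of complex IV, cytochrome c oxidase, lay above 0, with a median of 0.10 and 0 called; without the FcCD70 library numbered 2, 11 of the 12 lay below 0, with a median of -0.17. Cox7a2l, which has been tied to the joining of complexes III and IV into supercomplexes, was the most abundant member of this group (chr17:83501918-83517330). It had 9283, 9553, 12518 and 12221 normalized counts in untreated and 9479, 16744 and 11766 in FcCD70 libraries. Numbers 1 and 2 of the untreated group and number 1 of FcCD70 formed the low end, and the log2 difference was 0.25 (95% interval -0.16 to 0.66), or -0.03 without FcCD70 number 2. Cox5a had log2 differences of -0.24, 0.95 and -0.13 in pairs 1 to 3, and Cox5b had -0.24, 0.46 and -0.09. Cox7b (chrX:106015700-106022450), the member with the smallest adjusted p once FcCD70 number 2 was left out, had 2098, 1781, 2224 and 2242 in untreated and 1670, 2771 and 1933 in FcCD70 libraries. Its values without number 2 overlapped those of untreated number 2.

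Several subunits of complex IV come as isoform pairs of which one prevails in heart, muscle or other tissues. In these cells the widely expressed form held nearly all the counts. Cox4i1 had 4821 to 6223 normalized counts in untreated libraries, while Cox4i2, a form known from lung and from low oxygen, lay between 0 and 1.94. Cox6a1 had 946 to 1444 in untreated libraries against 0 to 2.61 for Cox6a2, the muscle form. Cox6b1 had 2744 to 3213, and Cox6b2, the testis form, 6.05 to 18.3 in untreated and 4.49 to 26.9 in FcCD70 libraries. Cox7a2 had 1492 to 1908, and the muscle form Cox7a1 0 to 13.6. Cox8a had 1420 to 2492, whereas Cox8b and Cox8c were at 0 in all 7 libraries, as was Ndufa4l2, the paralog of Ndufa4; a count of 0 allows up to 2.61 to 3.37 normalized counts in a library, counting error only. Ndufa4 itself, named for complex I but since assigned to complex IV, had 1298 to 1458. The 6 genes not tested were thus Cox4i2, Cox6a2, Cox7a1, Cox8b, Cox8c and Ndufa4l2.

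**Figure D3:**
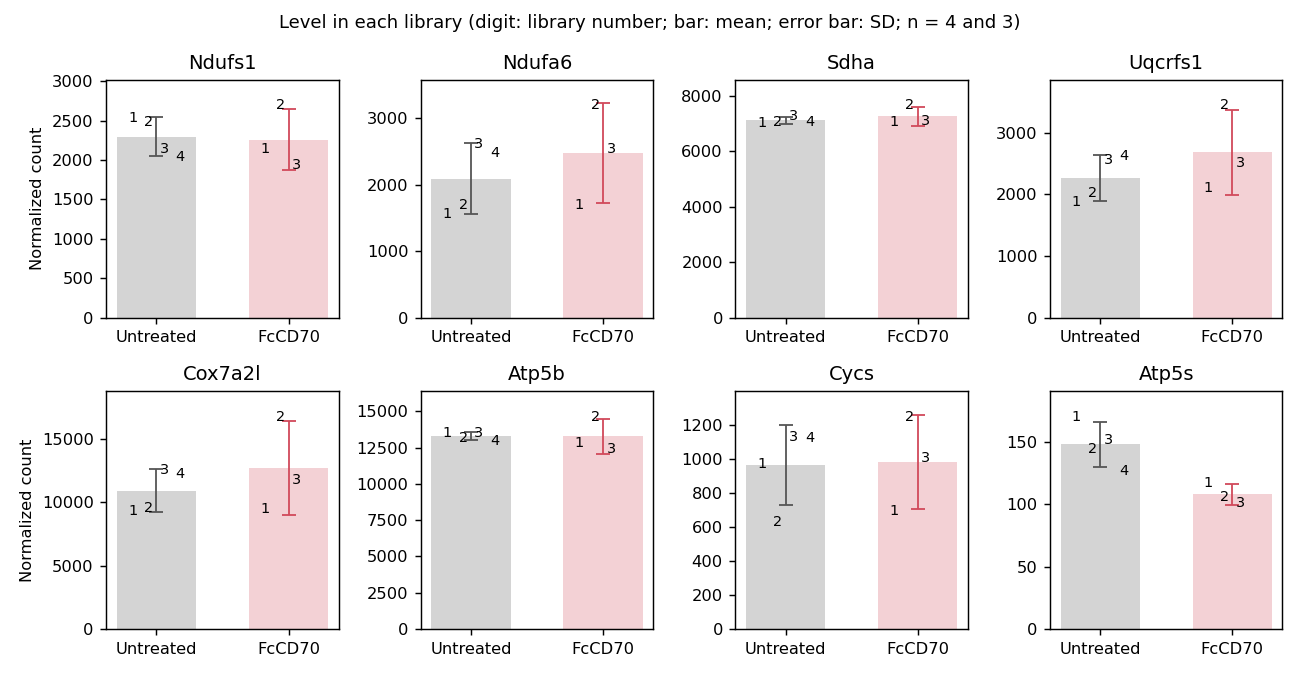
Digits mark the normalized count of each library by its number, bars give the group mean and error bars the SD (4 untreated, 3 FcCD70 libraries). FcCD70 number 2 tops 7 of the 8 genes; Atp5s, in the last panel, is the exception, with 101 to 117 in FcCD70 and 127 to 171 in untreated libraries.

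Of the 17 genes named for the ATP synthase, 12 lay above 0 and 5 below, with a median of 0.06 and 0 called. Without FcCD70 number 2 the median was -0.12, with 1 above 0 and 16 below. Atp5b, the catalytic beta subunit (chr10:128083273-128090391), had a coefficient of variation of 2.07% among untreated libraries and a mean of 13276 ± 275 normalized counts (SD, n = 4), against 13270 ± 1202 (SD, n = 3) in FcCD70 libraries. Its log2 difference was -0.02 (95% interval -0.33 to 0.30), or -0.10 without FcCD70 number 2. Atp5a1, the alpha subunit of the same head, had log2 differences of -0.04, 0.30 and -0.09 in pairs 1 to 3. The smaller stalk subunits had a wider range in pair 2: Atp5e, the epsilon subunit, had 0.95, Atp5o 0.64, Atp5d 0.44 and Atp5c1, the gamma subunit, 0.29. The c subunit of the rotor ring is encoded by several genes that make the same mature protein. In untreated libraries Atp5g3 had 3149 to 3434 normalized counts, Atp5g2 1407 to 2150 and Atp5g1 618 to 772. In pair 2 their log2 differences were 0.70, 0.52 and 0.15.

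Atp5s and Atp5sl departed from the rest. Atp5s encodes coupling factor B, a protein associated with the ATP synthase, and lies at chr12:69724950-69744660. It had 171, 144, 151 and 127 normalized counts in untreated libraries 1 to 4 and 117, 106 and 101 in FcCD70 libraries 1 to 3. All FcCD70 values lay below all untreated ones, and the difference was of like size in each pair (-0.54, -0.45 and -0.57). The log2 difference was -0.52 (SE 0.23; 95% interval -1.03 to -0.01), with an unadjusted p of 0.0463 and an adjusted p of 0.9998 (limma), so it did not pass over all genes. Without the FcCD70 library numbered 2 it was -0.56. In the pair numbered 4, whose FcCD70 library was rebuilt from the authors' mean over 8 libraries, the difference was 0.10, so that pair did not share the direction. Atp5sl, whose product is known as an assembly factor of complex I, had 1270, 1082, 958 and 964 in untreated and 1046, 1022 and 968 in FcCD70 libraries. With Atp5s and the scarce Cox6b2 it made up the 3 members that were lower in pair 2.

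Levels were compared between genes as normalized counts per kb of the principal transcript of GENCODE M21. In untreated libraries Uqcrh (11092 ± 2040; SD, n = 4) and Cox7a2l (10124 ± 1591) were the highest, and these neighbours did not differ beyond their spread. Cox4i1 (7358 ± 888) and Atp5b (6929 ± 143) came next and overlapped in the same way. Complex medians of this level were 3003 for complex IV, 2712 for complex V, 1668 for complex III, 1662 for complex II, 1063 for complex I and 209 for the complex I assembly factors. Within complex I the level ran from 227 for Ndufab1, the mitochondrial acyl carrier protein, to 3537 for Ndufa6. A gene whose principal model is long for its family, such as Ndufab1 or Cycs (308), has its level understated on this scale where shorter forms prevail.

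**Figure D4:**
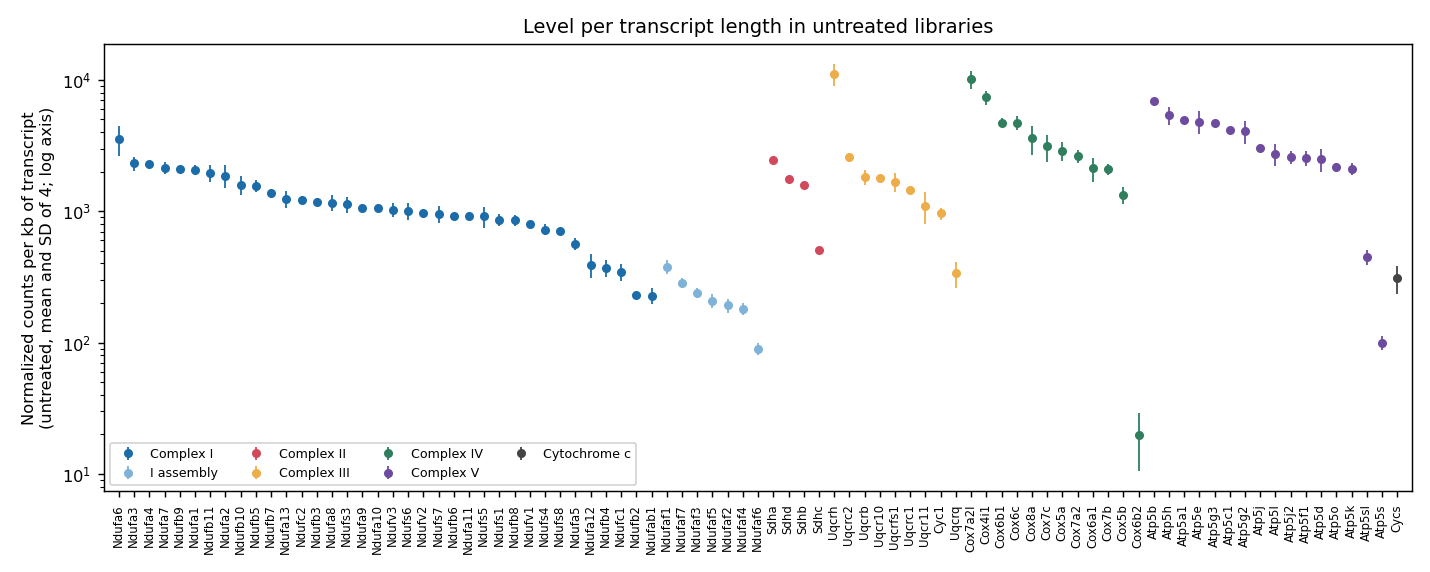
Points give the mean level in normalized counts per kb of transcript over the 4 untreated libraries, error bars the SD, on a log axis, with genes grouped by complex and ordered by level. Atp5g1 is left out because its annotated model is far longer than those of its paralogs; assembly factors, Atp5s and Cox6b2 lie at the low end and Uqcrh and Cox7a2l at the top.

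The difference in pair 2 followed transcript length among the members, as it did among all genes. Its rank correlation with length was -0.35 over the 87 genes and -0.53 over all genes tested, given as a description since all points share the same pair of libraries. The 22 members under 600 bases had a median of 0.62 in pair 2, against 0.48 for all 197 genes of that length. The 26 members of 600 to 1000 bases had 0.63 against 0.51, and the 29 of 1000 to 2000 bases had 0.50 against 0.29. The 10 members of at least 2000 bases had 0.16 against -0.12 for 7949 genes. The members lay above genes of like length in each class; how far length accounts for their difference was not tested. With a trend on length and GC content removed, the median of the 87 genes over all pairs was 0.05, with 60 above 0. Over all genes the median in that fit was 0.01, with 5847 of 11083 above 0.

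Ribosomal protein genes, which are also short and abundant, served for comparison: 74 of 76 were tested, with a median of 0.09 and 0 called. Their medians in pairs 1 to 3 were -0.29, 0.68 and -0.10, the same order as in the respiratory genes. In untreated libraries both numbers 3 and 4 exceeded 1 and 2 in 73 of the 74, against 30.5% of all genes. Without FcCD70 number 2 the median of the ribosomal genes was -0.20, and 4 of the 74 passed the test as lower. In that fit 20 of all 11103 genes (0.18%) passed in either direction.

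**Figure D5:**
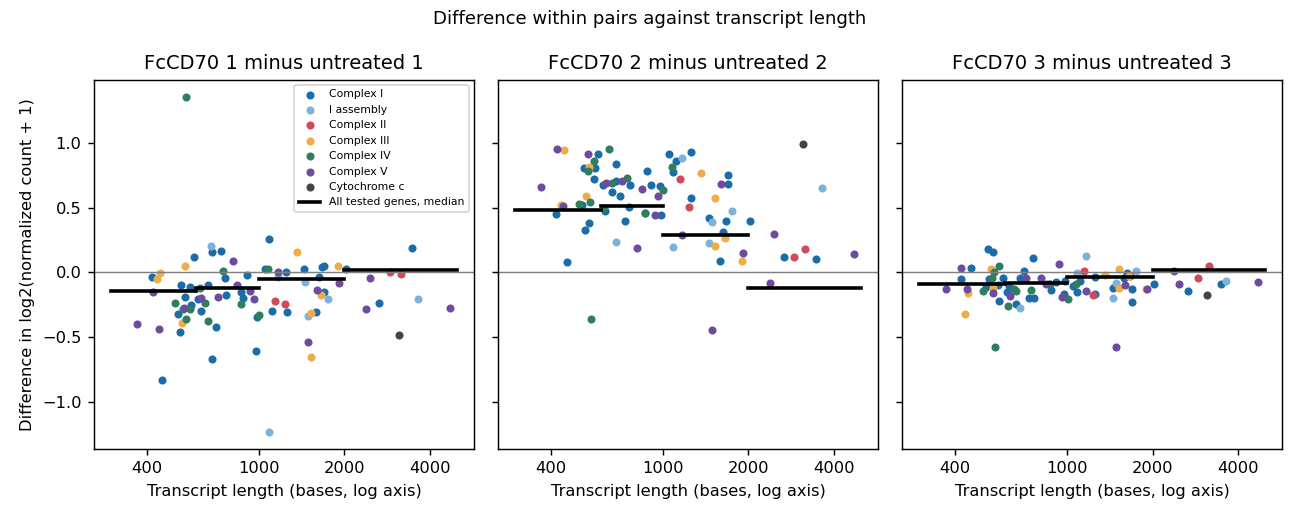
Each point is 1 tested gene, placed by transcript length in bases (log axis) and by its difference in log2(normalized count + 1) within the pair; black lines are the medians of all tested genes in 4 length classes. In pair 2 the lines step down from 0.48 and 0.51 to 0.29 and -0.12, and most respiratory genes lie above the line of their class.

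Other genes of the pathway were described from lists outside the symbol rule, and 0 members of any list passed the test. mt-Nd6 had 1022, 798, 729 and 744 normalized counts in untreated and 771, 808 and 1027 in FcCD70 libraries, with a log2 difference of 0.03; it lies on the strand opposite to most mitochondrial genes, and without strand their reads cannot be told apart. The 38 tested assembly factors outside the symbol rule, some of them for complex I, had a median of 0.04. Coa6, which helps deliver copper to complex IV, had the smallest p among them (183, 168, 285 and 303 in untreated, 240, 383 and 293 in FcCD70 libraries; log2 difference 0.54, or 0.22 without FcCD70 number 2). The 16 enzymes of the citric acid cycle and pyruvate dehydrogenase had a median of 0.05. The 13 genes of coenzyme Q synthesis had a median of 0.03; Pdss1, which makes the tail of coenzyme Q, had 188, 134, 94.2 and 105 in untreated and 94.3, 107 and 62.6 in FcCD70 libraries (log2 difference -0.63, unadjusted p = 0.0356; limma, adjusted p = 0.9998), and its log2 difference was -0.79 without FcCD70 number 2. The 7 carriers and channels had a median of 0.04, the 7 antioxidant genes 0.16, and the 9 genes of mitochondrial DNA expression 0.00. Without the FcCD70 library numbered 2 the log2 difference of mt-Nd6 was 0.04, while all of these medians of the other lists lay below 0. They were -0.03 for the assembly factors, -0.05 for the citric acid cycle, -0.05 for coenzyme Q synthesis, -0.07 for the carriers, -0.09 for the antioxidant genes and -0.06 for mitochondrial DNA expression.

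Transcription of respiratory genes is known to be driven by NRF1, the ETS factor GABP, YY1 and estrogen-related receptors, with PGC-1 coactivators. Of 9 tested regulators 0 passed, with a median of 0.00, or 0.01 without FcCD70 number 2. Nrf1 had 1216, 1100, 1102 and 1133 normalized counts in untreated and 1130, 1074 and 1206 in FcCD70 libraries (log2 difference 0.00). Gabpa, the DNA-binding part of GABP, had a log2 difference of 0.03, Yy1 0.21, and Gabpb2, a partner of Gabpa, -0.30, with -0.97 in pair 2 alone and 0.04 in the fit without FcCD70 number 2. Ppargc1a, the gene of PGC-1alpha, lay between 0 and 4.86 normalized counts, while Pprc1 had 991 to 1411 in untreated libraries.

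Because the levels of these genes varied together between libraries, their promoters were searched for the letters these factors are known to bind, on both strands, in RefSeq's windows around the gene start (GRCm38.p6; 76 of the 93 genes had a window). The NRF1 letters GCGCANGCG were in 22 of the 76 windows (28.9%), against 8.83% of 17492 windows of coding genes. The YY1 letters AAGATGGCG were in 7 (9.21%, against 1.94%), the receptor letters AAGGTCA in 8 (10.5%, against 4.08%) and the ETS letters CCGGAAGT in 5 (6.58%, against 5.29%). The tested members with the NRF1 letters (22) had median differences of -0.19, 0.68 and -0.09 in pairs 1 to 3, and those without (52) had -0.14, 0.52 and -0.09. A match is a description of letters and not of binding. For each complex and for Cycs, the 200 bases before the start are shown, 5′ to 3′ on the gene's strand with matches in capitals. The gene shown has the most matches there, overlapping ones counted once, among windows with at most 30 bases inside the gene's own annotation. This limit left out Ndufa8, Ndufb4, Sdha and Atp5h, which held more matches than the gene shown. Overlap of the windows with other annotated genes was not checked, so a window may hold part of a neighbouring gene. The first symbol in the alphabet was taken where genes tied (3 in complex I, 2 in complex V).
Ndufa11 (complex I), chr17:56717562-56717761, plus strand: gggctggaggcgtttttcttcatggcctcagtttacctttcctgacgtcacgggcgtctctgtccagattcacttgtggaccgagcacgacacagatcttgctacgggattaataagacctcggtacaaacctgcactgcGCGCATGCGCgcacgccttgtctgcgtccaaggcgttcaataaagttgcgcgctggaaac
Sdhd (complex II), chr9:50603850-50604049, minus strand: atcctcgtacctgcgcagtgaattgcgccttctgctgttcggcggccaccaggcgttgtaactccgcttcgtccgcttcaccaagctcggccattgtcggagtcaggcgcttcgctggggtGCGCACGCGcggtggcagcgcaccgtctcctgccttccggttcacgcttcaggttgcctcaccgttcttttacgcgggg
Uqcr11 (complex III), chr10:80406822-80407021, minus strand: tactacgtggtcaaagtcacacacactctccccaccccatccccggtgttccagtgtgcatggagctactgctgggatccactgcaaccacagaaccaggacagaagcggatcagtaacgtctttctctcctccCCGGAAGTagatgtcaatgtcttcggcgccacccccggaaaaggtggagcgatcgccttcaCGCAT
Cox6a1 (complex IV), chr5:115348959-115349158, minus strand: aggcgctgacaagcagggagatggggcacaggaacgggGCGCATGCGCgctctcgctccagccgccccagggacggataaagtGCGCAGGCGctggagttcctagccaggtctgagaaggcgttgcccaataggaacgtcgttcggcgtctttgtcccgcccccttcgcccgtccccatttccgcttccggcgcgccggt
Atp5g3 (complex V), chr2:73911327-73911526, minus strand: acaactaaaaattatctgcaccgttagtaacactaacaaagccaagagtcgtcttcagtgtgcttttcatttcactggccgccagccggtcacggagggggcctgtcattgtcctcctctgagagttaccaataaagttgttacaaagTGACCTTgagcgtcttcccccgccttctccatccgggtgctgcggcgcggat
Cycs, chr6:50566570-50566769, minus strand: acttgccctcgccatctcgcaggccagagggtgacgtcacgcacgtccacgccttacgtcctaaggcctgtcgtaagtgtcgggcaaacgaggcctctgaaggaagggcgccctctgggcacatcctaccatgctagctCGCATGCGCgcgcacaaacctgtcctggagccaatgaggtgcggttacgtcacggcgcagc
The capitals mark NRF1 letters in Ndufa11, Sdhd, Cox6a1 and Cycs, ETS and then NRF1 letters in Uqcr11 (the latter run past the start), and receptor letters on the opposite strand in Atp5g3. In Cycs the NRF1 match begins 61 bases before the start. The normalized counts of Cox6a1, which holds the letters at more than 1 place, were 1049, 946, 1444 and 1400 in untreated and 864, 1721 and 1493 in FcCD70 libraries; those of Uqcr11 were 374, 380, 641 and 572 in untreated and 374, 732 and 575 in FcCD70 libraries. In both genes untreated 1 and 2 and FcCD70 1 were the low libraries.

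Counts of some members are uncertain because their letters recur elsewhere. In 40 of the 93 genes at least 1 stretch of 50 bases of the principal transcript was shared with another gene's transcripts, most often a processed pseudogene, and in 4 over 50% of the stretches were shared: Atp5g2 (100%), Atp5l (68.5%), Cox7c (53.0%) and Atp5h (50.5%). For 32 of the 93 a gene was annotated on the opposite strand, among them Ndufs1, Sdha, Uqcrh and Cox4i1, and the strand setting of the counting is not given in the sources used here.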

How the data were processed

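Messenger RNA libraries were made with a strand-marking Illumina TruSeq kit, per the labels' protocols. The submitters' processing notes list TopHat2, SAMtools, HTSeq, DESeq2 and GRCm38.p4 without saying what each did. The library columns are a signal: the authors divided read counts by 1 size factor per library, so 100% of values were whole multiples of 1 step (within 0.01). The log2 fold changes, the deposited score (Wald statistic) and the deposited p-values are DESeq2's, per the file headers; the authors coded log2 fold changes as untreated minus FcCD70, and the sign was turned here.

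These values are no longer raw counts, so log2(value + 1) was fitted with limma 3.58.1 and its trend option, as planned for that case, keeping genes whose mean reached 10. The library number entered as a block, as the table is named a paired analysis, and untreated number 4 has no partner. This log2(value + 1) scale understates the fold changes of low genes. Calls needed a Benjamini-Hochberg adjusted p under 0.05, and intervals are at 95%. The FcCD70 sample numbered 4 has no column; its values were rebuilt from the authors' mean over 8 libraries for alternatives only. Gene models came from GENCODE M21, with R 4.3.3 and Python 3.11.15. Alternatives covered pseudocounts, filters, TMM scaling, edgeR 4.0.16, DESeq2 1.42.0, length and GC trends, and left-out libraries. The scripts were tested on simulated data.

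Genes named with values are, by rule, those called; in each complex the most abundant and the one with the smallest p; the core subunits; isoform families; the 3 highest and lowest of each pair; and up to 2 of each other list. Ndufab1, Uqcr11, Atp5h, Atp5l, Nrf1, Gabpa, Ppargc1a, Pprc1 and the promoters shown were named after their values were seen. Some genes that the rule takes are not reported here. The members and lists were chosen with earlier results of these data known.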

Additional observations from a re-analysis of the deposited data

Results flagged for a closer look

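Among 17 groups of untreated values checked for 1 sample standing apart, 2 had a gap to the nearest sample above the 95% critical value of Dixon's ratio for 4 samples, and chance flags about 1 in 20. Sdha had 7278 normalized counts in untreated number 3 against 7023 to 7063 in the other 3 (gap over range 0.842). The summed complex I assembly factors had 2465 in untreated number 4 against 2550 to 2554 in the other 3 (0.957).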

How the results depend on the processing

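Under 23 alternatives 690 values were compared. Of these, 642 kept their direction and side or moved by less than the spread, 11 moved further and 37 turned. The 642 include the turn of the members' median from 0.09 to -0.13 without FcCD70 number 2. They also include the turn below 0 of every complex median there, so the 642 is not a count of kept directions. The members' medians in the 3 pairs, with FcCD70 number 2 among them, had an SD of 0.41. Under these alternatives 0 members passed the test (limma, edgeR and DESeq2), with 0 to 19 at an unadjusted p under 0.05. Leaving out libraries gave a median of the members from -0.13 to 0.24 and 0 to 20 genes called in all (19 without both libraries numbered 2, 6 without those numbered 3, 20 without FcCD70 number 2, 6 with a covariate for the numbers in place of the block). DESeq2 called 1 gene. Over those fits the log2 differences ran from -0.10 to 0.044 for Atp5b, -0.031 to 0.42 for Cox7a2l, -0.33 to 0.41 for Cycs, -0.13 to 0.29 for Ndufaf4, -0.019 to 0.060 for Sdha, -0.11 to 0.37 for Sdhb, -0.035 to 0.43 for Uqcrh and -0.56 to -0.38 for Atp5s. The medians of coenzyme Q synthesis (-0.052 to 0.108) and of the regulators (-0.0455 to 0.0612) moved by more than their spread. The cause of these shifts was not tested.

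With the rebuilt eighth library the members' median was 0.06. With it and without FcCD70 number 2, an alternative chosen after seeing the data, it was -0.08, 5 genes were called in all, and the log2 differences were -0.25 for Cycs, -0.15 for Ndufaf4, -0.005063 for Sdha, -0.055 for Sdhb and -0.009387 for Uqcrh. Same-numbered libraries had correlations of their deviations from the group means of 0.30, 0.01 and 0.43. Libraries of different numbers reached 0.35 (untreated 4 with FcCD70 3) and 0.26 (untreated 2 with FcCD70 1). The remaining values ran from -0.36 to 0.03, so the numbers were not shown to pair the samples. Without the replicate block the members' median was 0.05, 65 of 87 lay above 0, and 0 genes were called (120 at an unadjusted p under 0.05). The 6 untested genes had means under 10 normalized counts, and 3 of them were at 0 in all 7 libraries. Leaving out both libraries of a number left 2 pairs, as did leaving out FcCD70 number 2 of the 7 under the block. Those p-values rest on little replication.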
